A study of Mus musculus with 18 samples.

Results

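The 33 genes described here mark the cells of the brain's vessel wall, and all 33 were found by name among the 29942 gene names of an RNA-seq table of mouse striatum. The markers divide into 21 of endothelial cells, 7 of mural cells (pericytes and smooth muscle) and 5 of fibroblasts. They were chosen by name and known cell type, with earlier results of these data known. PolyA RNA was sequenced from striatal tissue above the anterior commissure, both sides together, of 18 sibling mice of strain 129Sv/Jae S4, housed in groups and matched for age and sex, with no age stated. Mice in 3 groups received D-amphetamine hemisulfate in 0.9% saline intraperitoneally, at 10 ml/kg and 7 mg/kg in total per day, and were sampled on day 1, 7 or 21. Mice in the other 3 groups received 0.9% saline by the same route and were sampled on the same days, with 3 mice in each of the 6 groups. D-amphetamine is a stimulant that raises extracellular dopamine and noradrenaline, and the series concerns striatal transcripts tied to repetitive behaviours that the drug induces. The comparison addressed below is whether vessel markers differed with amphetamine on each day, over the days, and between days.

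Endothelial cells of brain capillaries are joined by tight junctions, carry nutrient transporters and drug efflux pumps, and restrict vesicle traffic across the wall, which makes them the site of the blood-brain barrier. Pericytes on capillaries and smooth muscle cells on arterioles ensheath the endothelium, depend on platelet-derived growth factor from it, and set vessel diameter. Fibroblasts lie along larger vessels and in the meninges and deposit collagens and small proteoglycans. In a bulk sample of tissue, fewer cells of a type and less RNA per cell cannot be told apart.

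Proximal promoters were looked up because many endothelial markers had their highest level in the same animal. RefSeq promoter entries (build GRCm38.p6) matched 21 of the 33 genes, and the 250 bases before the transcription start were searched on both strands for 5 motifs. The authors' files use build mm9, and the coordinates here are of GRCm38.p6. The GC box GGGCGG, a site for Sp-family factors, occurred in 7 of 15 endothelial promoters (Cldn5, Flt1, Itm2a, Kdr, Pltp, Slc16a1 and Slc2a1), in 1 of 4 mural promoters (Abcc9), in 1 of 2 fibroblast promoters (Col1a2) and in 32.9% of all 27025 promoters. The strict ETS form CCGGAA was found in Kdr and in 12.2% of all promoters, and the cAMP response element TGACGTCA in Flt1 and in 1.62%. ETS forms with other bases before GGAA were not searched. The Flt1 window holds AGGAAGT, which is such a form and is not marked. The AP-1 site TGANTCA (6.87% of all promoters) was found in none of the 21. Nor was the strict CArG box of smooth muscle genes, CCWWWWWWGG with W for A or T (1.4%). Forms of the CArG box with another base in the core were not searched. The Acta2 window holds CCCTATATGG and CCTTGTTTGG, which each differ from the strict form in 1 base. The sequences of the tight junction gene Cldn5 and of the vascular growth factor receptor genes Flt1 and Kdr are shown, since these 3 genes had their highest level in the same animal and hold the motifs found. They lie at chr16:18776597-18776846 (plus strand), chr5:147726012-147726261 (minus strand) and chr5:75978456-75978705 (minus strand), and read 5′ to 3′ on the gene's strand. Capitals mark the GC box (GGGCGG or its complement), the strict ETS form CCGGAA or its complement, and the cAMP response element.
Cldn5: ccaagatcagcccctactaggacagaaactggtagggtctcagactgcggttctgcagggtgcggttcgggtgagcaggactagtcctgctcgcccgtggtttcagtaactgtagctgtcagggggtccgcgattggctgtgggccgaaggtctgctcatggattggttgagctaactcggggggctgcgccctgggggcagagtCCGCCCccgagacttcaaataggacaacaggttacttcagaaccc
Flt1: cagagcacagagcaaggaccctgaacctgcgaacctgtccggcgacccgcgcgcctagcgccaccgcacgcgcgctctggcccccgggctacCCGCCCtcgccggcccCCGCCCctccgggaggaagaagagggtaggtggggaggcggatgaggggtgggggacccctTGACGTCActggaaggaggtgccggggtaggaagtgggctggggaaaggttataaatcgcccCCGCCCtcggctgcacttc
Kdr: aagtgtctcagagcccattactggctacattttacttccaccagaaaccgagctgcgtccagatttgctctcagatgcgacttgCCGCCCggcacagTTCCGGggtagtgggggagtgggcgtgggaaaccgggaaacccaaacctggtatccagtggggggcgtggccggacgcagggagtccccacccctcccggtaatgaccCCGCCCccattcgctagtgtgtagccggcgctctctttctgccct
These matches describe letters in the windows and no binding was measured.

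Levels are given as FPKM, fragment numbers scaled to transcript length and to the library's mapped fragments, as the authors deposited them. Of the 33 markers, 28 averaged at least 1 FPKM and were tested, namely all 21 endothelial genes, 6 of 7 mural genes and the fibroblast gene Dcn. Myh11, Col1a1, Col1a2, Col3a1 and Lum lay below 1 FPKM and are described only. The most abundant endothelial transcript was Slc2a1, with a mean of 31.2 FPKM over the 18 libraries, followed by Ly6a (26.8), Itm2a (22.7), Ly6c1 (21.2) and Pltp (17.7). Kdr was the least abundant at 1.24 FPKM, next to Tie1 at 1.35 FPKM. Among mural genes Vtn (18.7 FPKM) and Rgs5 (17.2 FPKM) were on top and their ranges overlapped, while Acta2, Pdgfrb and Tagln averaged 4.07, 3.32 and 2.60 FPKM. Every endothelial and mural marker was above 0 in every library, and fibroblast collagens were near the lower end of detection, with Col3a1 at 0.0233 to 0.159 FPKM.

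**Figure D1:**
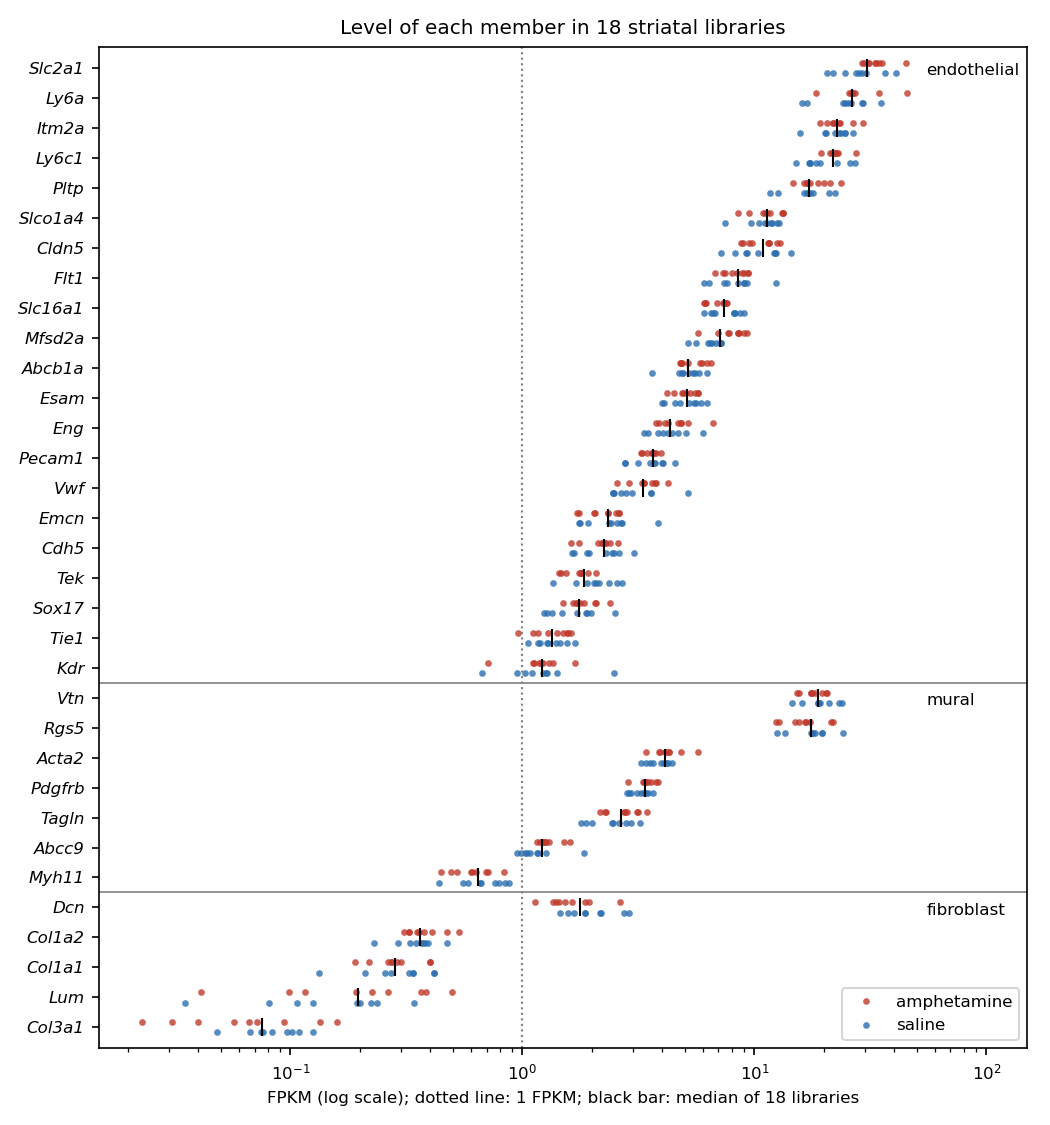
FPKM of the 33 markers on a log scale in each library, amphetamine (red, upper points) and saline (blue, lower points), with a black bar at the median of 18 libraries and a dotted line at 1 FPKM. The endothelial transcripts span means of 1.24 to 31.2 FPKM, and Myh11 and the fibroblast genes other than Dcn lie below 1 FPKM.

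Sequencing depth relative to the deepest library was 0.652 in the shallowest, and the group means were 0.811, 0.822 and 0.765 for amphetamine mice of days 1, 7 and 21 and 0.884, 0.894 and 0.873 for saline mice. Absolute depth was unknown, but whole reads could be recovered for 9 markers, and these ranged from 1 to 11 reads per library for Lum to 348 to 589 for Itm2a. One library stood apart for vessel genes. Saline replicate 2 of day 7 had the highest of 18 values for 10 of the 21 endothelial genes (47.6%) and 3 of the 6 tested mural genes, against 2.69% of all tested genes. In the same library the summed level of the 3 blood markers analysed, Hbb-b1, Hba-a2 and Alas2, was 888 FPKM, while it was 108 to 347.7 FPKM in the 9 amphetamine libraries and 78.8 to 396.7 FPKM in the other 8 saline libraries. Its part in the results was not tested, and counts that moved without it are given both ways. Amphetamine replicate 3 of day 1 had the highest value for 19.6% of all tested genes and for 3 of 21 endothelial genes.

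The summed endothelial level was 191.5, 217.1 and 223.6 FPKM in amphetamine mice on day 1, against 166.6, 163.1 and 205.6 FPKM in saline mice. On day 7 it was 196.1, 206.6 and 200.6 FPKM with amphetamine, against 153.7, 241.5 and 196.1 FPKM with saline. On day 21 it was 192.9, 212.7 and 196.0 FPKM with amphetamine, against 194.5, 181.6 and 204.2 FPKM with saline. The groups overlapped on each day, and the lowest and the highest of the 18 sums were both in saline mice of day 7. The summed mural level was 40.5 to 52.4 FPKM with amphetamine and 42.8 to 61.6 FPKM with saline over all days. The summed fibroblast level did not overlap on day 7, at 2.52, 2.55 and 2.02 FPKM with amphetamine against 3.67, 2.98 and 3.15 FPKM with saline, and most of that sum was Dcn.

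**Figure D2:**
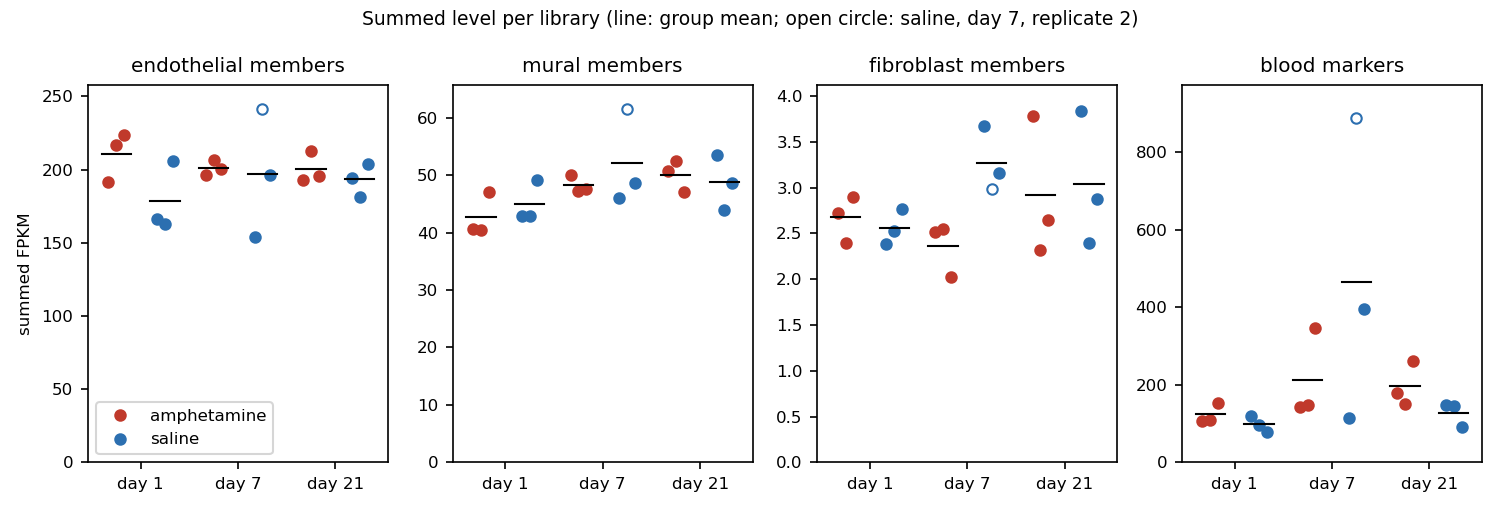
Summed FPKM of the endothelial, mural and fibroblast markers and of 3 blood markers in each library by day, amphetamine (red) left of saline (blue), with a line at each group mean and an open circle for saline replicate 2 of day 7. That library has the highest endothelial, mural and blood sums (241.5, 61.6 and 888 FPKM), and the amphetamine libraries lie closer together than the saline libraries in the endothelial panel.

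No vessel marker passed the test of amphetamine against saline on any day. Tests were made with limma on log2(FPKM + 1) over all 13975 genes with a mean of at least 1 FPKM, with Benjamini-Hochberg adjustment over all of them and calls at 0.05, and differences below are amphetamine minus saline on that log2 scale. The limma test called 0 of the 28 markers on day 1, against 0.00716% of all genes, 0 on day 7 against 0.0215%, and 0 on day 21 against 0%. It called 0 of 28 in the mean of the 3 days against 0.122% of all genes, and 0 of 28 in the treatment by day interaction against 0%. At an unadjusted limma p under 0.05 the daily comparisons held 2, 4 and 1 of 28 markers in order of day, against 7.25%, 4.92% and 5.5% of all genes, the mean held 2 against 5.36%, and the interaction 0 against 6.25%. A day's difference of a marker had a standard error between 0.084 and 0.25.

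The endothelial genes lay mostly above 0 on day 1. On that day 17 of 21 were higher with amphetamine, with a median difference of 0.10, against 64% of all tested genes and a median of 0.05. The count was 7 of 21 on day 7 (median −0.04, against 51.5% and 0.00 for all genes) and 13 of 21 on day 21 (median 0.02, against 42.7% and −0.02). The counts of days 1 and 7 moved most when single saline animals were left out. Without saline replicate 2 of day 7 the day 7 count was 16 of 21 and the median 0.09, and without saline replicate 1 of that day it was 4 of 21 and −0.20. Without saline replicate 2 of day 1, the lowest of 18 libraries for 8 endothelial genes and for 3.85% of all tested genes, the day 1 count was 12 of 21, and without saline replicate 3 of day 1 it was 19 of 21. The day 21 count lay between 11 and 14 with 1 library left out at a time. In the mean of the 3 days 15 of 21 endothelial genes were above 0 (55.6% of all genes), 11 without saline replicate 2 of day 1, and 18 without saline replicate 2 of day 7. Slc2a1, Mfsd2a, Ly6c1, Eng and Abcb1a were higher on all 3 days and no endothelial gene was lower on all 3, while 13.1% of all genes were higher and 8.04% lower on all 3 days.

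Choroid plexus markers were also higher with amphetamine on day 1, and their part in the endothelial count was not tested. The summed level of the 6 markers was 102.3, 26.7 and 54.1 FPKM with amphetamine, against 19.9, 16.2 and 10.8 FPKM with saline. Ttr ran from 18.1 to 91.1 FPKM with amphetamine and from 2.46 to 12.9 FPKM with saline. Kl ran from 1.43 to 1.82 FPKM and from 0.711 to 0.897 FPKM, and Clic6 from 6.6 to 8.38 FPKM and from 5.68 to 7.0 FPKM. Kcnj13 and Folr1 stayed at or below 1.03 FPKM. On day 1, 3 of the 6 markers were higher without overlap, against 7.73% of all tested genes. Aqp1 was listed at 0 in 1 of the 3 saline libraries of that day and no other marker of the list was at 0 on that day. On day 7 the same sum was 8.63 to 31.4 FPKM with amphetamine and 7.93 to 15.8 FPKM with saline. Kl and Clic6 were higher without overlap on day 7, 2 of the 6 markers against 5.45% of all tested genes. Kl was at 0.757 to 1.15 FPKM with amphetamine and 0.605 to 0.733 FPKM with saline. Clic6 was at 5.68 to 6.31 and 4.96 to 5.47 FPKM. The groups of all 6 markers overlapped on day 21.

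**Figure D3:**
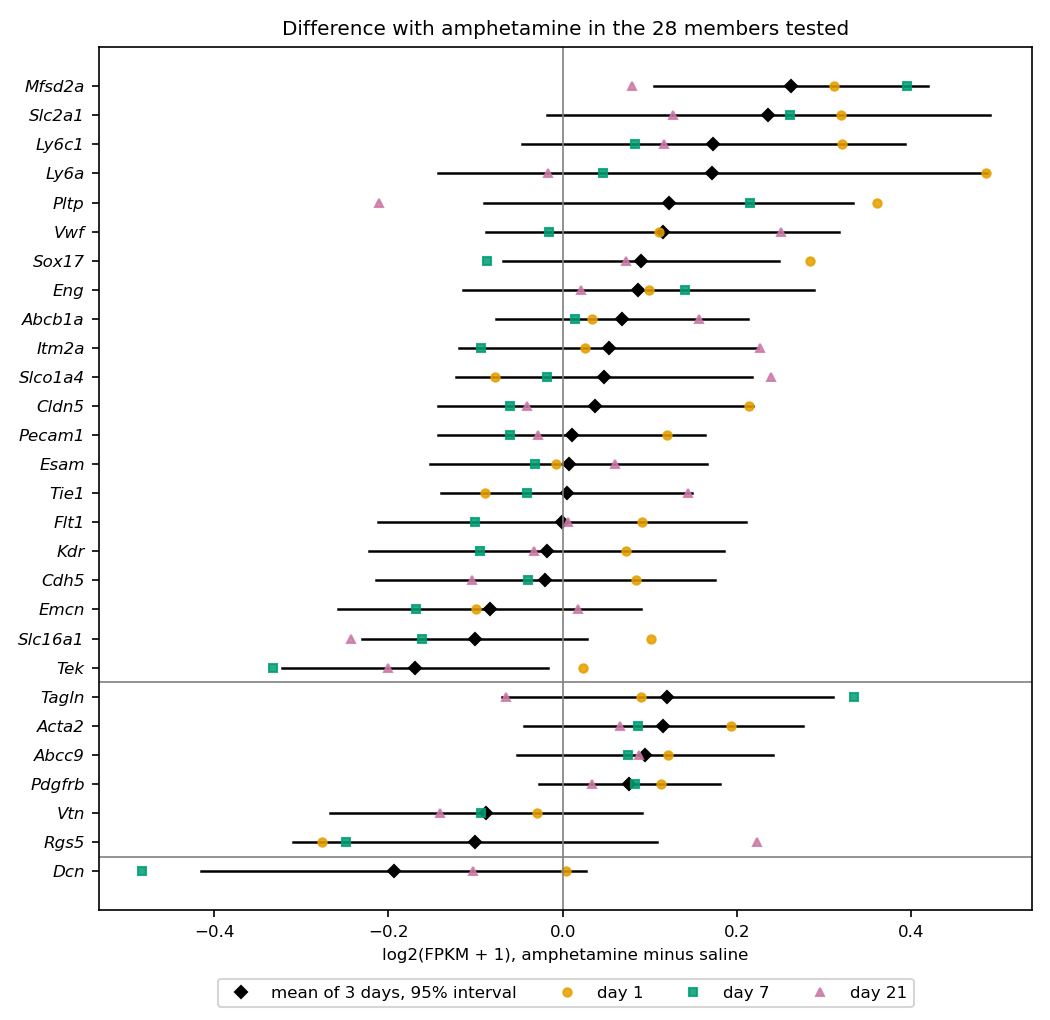
Difference between amphetamine and saline in log2(FPKM + 1) for the 28 tested markers on day 1 (circles), day 7 (squares) and day 21 (triangles), with the mean of the days and its 95% confidence interval (black), endothelial genes on top, then mural genes and Dcn. The interval excludes 0 for Mfsd2a and Tek, and neither passed after adjustment over all genes.

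Mfsd2a, which carries lysophosphatidylcholine with omega-3 fatty acids into the brain and holds vesicle traffic low in barrier endothelium, had the largest mean difference among the markers. It was at 8.48, 7.77 and 9.0 FPKM in amphetamine mice on day 1, against 5.61, 7.08 and 7.15 FPKM in saline mice. On day 7 it was at 9.29, 8.62 and 7.66 FPKM with amphetamine, against 5.19, 7.16 and 6.46 FPKM with saline. The groups did not overlap on these days, which was so in this direction for 7.73% of all genes on day 1, 5.45% on day 7 and 0.608% on both days. On day 21 the values were 6.96, 5.73 and 8.52 FPKM with amphetamine and 6.54, 6.33 and 6.84 FPKM with saline, and the groups overlapped. The daily differences were 0.31, 0.40 and 0.08, each with an SE of 0.13. Its mean over the days was 0.26 ± 0.07, with a 95% interval of 0.10 to 0.42 (limma adjusted p = 0.521). Over 27 other settings this mean lay between 0.17 and 0.30 with adjusted p between 0.252 and 0.942. Recovered reads of Mfsd2a were 217, 220 and 244 with amphetamine on day 1, against 183, 213 and 183 with saline, and 256, 199 and 241 on day 7, against 173, 208 and 174. The read numbers overlapped on day 7 and the scaled values did not.

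Slc2a1, the glucose transporter of the barrier, which astrocytes carry as well, followed with a mean difference of 0.24 ± 0.12 (limma adjusted p = 0.974). It was at 34.4, 33.05 and 44.9 FPKM in amphetamine mice on day 1, against 21.8, 29.0 and 40.6 FPKM in saline mice. On day 7 the values were 31.3, 33.4 and 35.5 FPKM with amphetamine and 20.46, 36.6 and 28.2 FPKM with saline, and on day 21 they were 29.7, 31.0 and 29.1 FPKM with amphetamine and 24.5, 30.4 and 27.3 FPKM with saline. The 9 amphetamine values reached down to 29.1 FPKM and 6 of the 9 saline values lay below that, so the groups differed in their low end and overlapped on every day.

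The other transporters did not share a direction. Slc16a1, which carries lactate and ketone bodies, was lower with amphetamine on day 21, at 7.35, 7.64 and 6.05 FPKM against 8.13, 8.24 and 8.99 FPKM with saline. These groups did not overlap (7.51% of all genes in this direction), and the difference was −0.24 ± 0.10 (limma adjusted p = 0.869). Slco1a4, an organic anion transporter, was higher with amphetamine on the same day without overlap (4.76% of all genes in this direction), at 13.1, 13.3 and 13.3 FPKM against 11.8, 9.68 and 11.9 FPKM with saline. Its difference was 0.24 ± 0.14 (limma adjusted p = 0.869). Abcb1a, the efflux pump P-glycoprotein, ranged from 4.79 to 6.48 FPKM with amphetamine and from 3.61 to 6.28 FPKM with saline, with daily differences of 0.03, 0.01 and 0.16, and 15.5% of its 50-base stretches are shared with Abcb1b. Pltp, a phospholipid transfer protein, was at 16.9, 20.0 and 23.6 FPKM with amphetamine on day 1 against 12.6, 16.8 and 17.1 FPKM with saline, and its daily differences were 0.36, 0.21 and −0.21 (limma interaction adjusted p = 0.773).

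Genes of junctions and adhesion showed no shared direction over the days. Cldn5, the main claudin of the blood-brain barrier, was at 8.78, 8.90 and 11.49 FPKM with amphetamine on day 1, against 7.18, 9.28 and 8.21 FPKM with saline. On day 7 it was at 9.49, 12.9 and 9.75 FPKM with amphetamine against 9.21, 14.4 and 10.4 FPKM with saline, and on day 21 at 12.6, 11.51 and 11.6 FPKM against 12.2, 12.2 and 12.4 FPKM. The groups overlapped on each day, and the mean difference was 0.04 with a 95% interval of −0.14 to 0.22. Pecam1 and Cdh5, adhesion molecules of endothelial contacts, ran from 3.25 to 3.95 and 1.62 to 2.59 FPKM with amphetamine and from 2.76 to 4.53 and 1.64 to 3.03 FPKM with saline. They had mean differences of 0.01 (interval −0.14 to 0.16) and −0.02 (−0.21 to 0.17). Esam and the sialomucin gene Emcn, at 4.21 to 5.71 and 1.72 to 2.60 FPKM with amphetamine and 4.001 to 6.25 and 1.75 to 3.84 FPKM with saline, had mean differences of 0.01 and −0.08. For these 5 genes the intervals of the mean exclude differences beyond 0.26 in either direction on the scale of log2(FPKM + 1). That scale understates changes of low genes such as Cdh5 and Emcn. Intervals of single days were wider and reached −0.47 for Emcn on day 7 and 0.53 for Cldn5 on day 1.

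Among the receptors, Tek differed most. Tek encodes the angiopoietin receptor Tie2, which holds vessels quiescent, and was at 1.55, 1.75 and 1.46 FPKM in amphetamine mice on day 7, against 2.04, 2.68 and 2.07 FPKM in saline mice. The groups did not overlap on that day (4.86% of all genes in this direction), and the difference was −0.33 ± 0.12 (limma adjusted p = 0.851). On day 21 the values were 1.91, 1.79 and 1.80 FPKM with amphetamine, against 2.55, 1.89 and 2.35 FPKM with saline. On day 1 they were 1.80, 2.08 and 1.44 FPKM with amphetamine against 1.71, 1.35 and 2.14 FPKM with saline, and the groups overlapped. Over the days the mean difference of Tek was −0.17 ± 0.07 (limma adjusted p = 0.9), and it was the only endothelial marker lower at an unadjusted p under 0.05 in that mean. Its partner receptor Tie1 was higher with amphetamine on day 21 without overlap (4.76% of all genes in this direction), at 1.5, 1.62 and 1.57 FPKM against 1.40, 1.28 and 1.29 FPKM, with a difference of 0.14 ± 0.12.

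The vascular endothelial growth factor receptors Flt1 and Kdr had daily differences of 0.09, −0.10 and 0.01, and of 0.07, −0.09 and −0.03. Flt1 ran from 6.74 to 9.37 FPKM with amphetamine and from 6.05 to 12.4 FPKM with saline, and Kdr from 0.712 to 1.69 and from 0.667 to 2.49 FPKM. The highest values of both, 12.4 and 2.49 FPKM, were in saline replicate 2 of day 7. Without that library the day 7 differences of Flt1 and Kdr were 0.09 and 0.13. Eng, a co-receptor of the TGF-beta family, ranged from 3.78 to 6.65 FPKM with amphetamine and from 3.35 to 5.98 FPKM with saline, with a mean difference of 0.09 (interval −0.11 to 0.29).

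Ly6a, a GPI-anchored surface protein of brain endothelium, had the largest single difference on day 1. It was at 27.2, 45.3 and 34.4 FPKM with amphetamine, against 25.2, 24.5 and 24.1 FPKM with saline, and the groups did not overlap (7.73% of all genes in this direction). The difference was 0.49 ± 0.25 (limma adjusted p = 0.674), and on days 7 and 21 it was 0.05 and −0.02. Ly6c1, of the same family, had differences of 0.32, 0.08 and 0.12, and 14.3% of its 50-base stretches are shared with Ly6c2, so its level is uncertain where reads could be split. Sox17, a transcription factor of arterial and barrier endothelium, was at 1.71, 1.85 and 2.05 FPKM with amphetamine on day 1 against 1.34, 1.24 and 1.49 FPKM with saline, without overlap (7.73% of all genes in this direction). Its difference was 0.28 ± 0.13 (limma adjusted p = 0.674) on day 1, −0.09 on day 7 and 0.07 on day 21. The membrane protein gene Itm2a ranged from 19.2 to 29.3 FPKM with amphetamine and from 15.8 to 26.49 FPKM with saline, and Vwf, the clotting factor carrier, from 2.56 to 4.22 and from 2.45 to 5.19 FPKM.

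**Figure D4:**
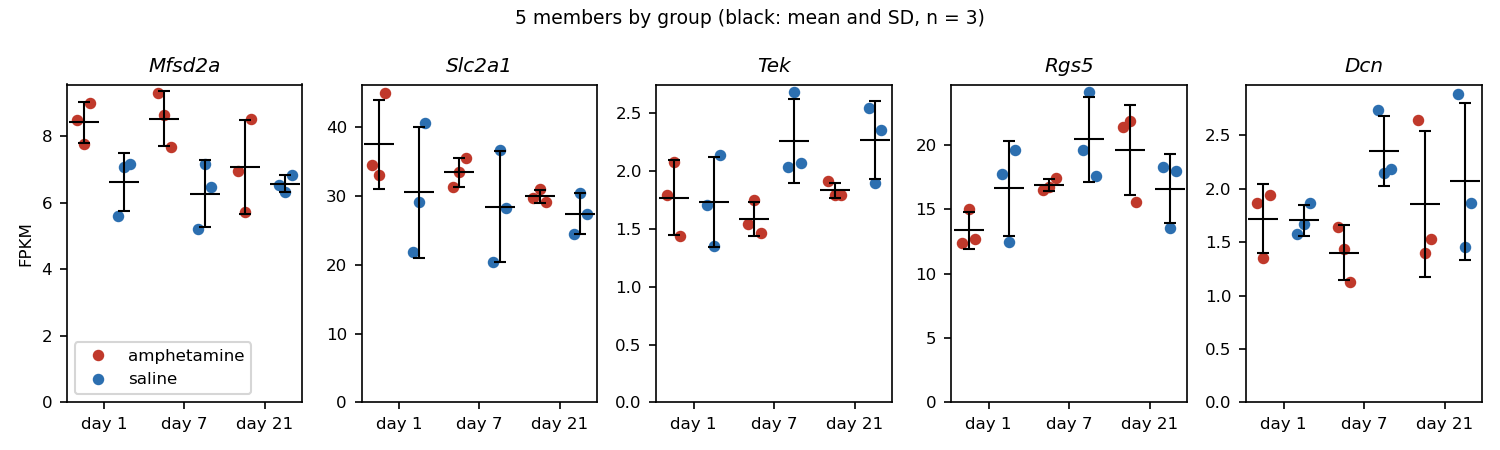
FPKM of Mfsd2a, Slc2a1, Tek, Rgs5 and Dcn in each library by day, amphetamine (red) left of saline (blue), with the mean and SD of 3 animals in black. Mfsd2a groups do not overlap on days 1 and 7, Tek, Rgs5 and Dcn groups do not overlap on day 7, and no gene passed the adjusted test.

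Of the 6 tested mural genes, 4 were above 0 on each day, against 64%, 51.5% and 42.7% of all genes, with medians of 0.10, 0.08 and 0.05. On day 7 the count was 5 of 6 without saline replicate 2. The summed mural level went the other way on days 1 and 7, averaging 42.7 and 48.3 FPKM with amphetamine against 45.0 and 52.1 FPKM with saline, as did the medians of −0.15 and −0.17 for Rgs5 and Vtn, the mural genes with a mean of at least 5 FPKM. The contractile gene Acta2, the pericyte receptor gene Pdgfrb and Abcc9, a subunit of vascular potassium channels, were higher with amphetamine on all 3 days. Acta2 ran from 3.39 to 5.68 FPKM with amphetamine and from 3.25 to 4.405 FPKM with saline, and Pdgfrb from 2.85 to 3.83 and from 2.81 to 3.65 FPKM. Acta2 had a mean difference of 0.12 (interval −0.04 to 0.28) and Pdgfrb of 0.08 (interval −0.03 to 0.18), the most precise estimate among the markers. Vtn, which encodes the matrix protein vitronectin, was lower on all 3 days, with a mean difference of −0.09 (interval −0.27 to 0.09), at 15.2 to 20.6 FPKM with amphetamine and 14.52 to 23.8 FPKM with saline. Abcc9 did not overlap on day 1 (7.73% of all genes in this direction), at 1.25, 1.30 and 1.23 FPKM with amphetamine against 1.03, 1.048 and 1.17 FPKM with saline, nor on day 21 (4.76%), at 1.27, 1.16 and 1.19 FPKM against 1.15, 0.990 and 1.08 FPKM. Its differences were 0.12 ± 0.12 and 0.09 ± 0.12, and its mean difference was 0.09 (limma adjusted p = 0.999).

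Rgs5, a regulator of G protein signalling and a widely used pericyte marker, lay on both sides of 0. On day 1 it was at 12.4, 15.02 and 12.7 FPKM with amphetamine against 17.8, 12.5 and 19.6 FPKM with saline. On day 7 it was at 16.5, 16.8 and 17.4 FPKM with amphetamine, against 19.6, 24.1 and 17.6 FPKM with saline, and these groups did not overlap (4.86% of all genes in this direction). On day 21 it was at 21.4, 21.8 and 15.5 FPKM with amphetamine and 18.3, 13.5 and 17.9 FPKM with saline. The differences were −0.28, −0.25 and 0.22, each with an SE of 0.17, and the limma interaction did not pass (adjusted p = 0.774). Tagln, an actin-binding protein of smooth muscle, was at 3.44, 2.73 and 3.12 FPKM with amphetamine on day 7 against 1.80, 3.22 and 1.89 FPKM with saline, and the groups overlapped. Its difference of 0.33 ± 0.15 (limma adjusted p = 1) was 0.52 without saline replicate 2 of that day. Myh11, the smooth muscle myosin heavy chain, stayed at 0.444 to 0.833 FPKM with amphetamine and 0.437 to 0.873 FPKM with saline.

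Dcn, the small proteoglycan decorin and the fibroblast marker abundant enough to test, was lower with amphetamine on day 7. It was at 1.64, 1.43 and 1.13 FPKM in amphetamine mice, against 2.73, 2.15 and 2.18 FPKM in saline mice, without overlap (4.86% of all genes in this direction). The difference was −0.48 ± 0.18 (limma adjusted p = 0.843), while it was 0.00 on day 1 and −0.10 on day 21. On day 21 the values were 2.64, 1.40 and 1.53 FPKM with amphetamine and 2.89, 1.46 and 1.87 FPKM with saline, and both of these groups spread more widely than those of day 7. Of 8 markers of meningeal fibroblasts, Slc6a13 was lower without overlap on day 7, at 0.332 to 0.567 FPKM with amphetamine and 0.662 to 1.07 FPKM with saline, and the groups overlapped for the other 7. Of 4 border macrophage markers, Cd163 was lower without overlap on that day, at 1.32 to 1.90 FPKM and 1.94 to 2.35 FPKM, and Mrc1, Lyve1 and Pf4 lay at or below 0.304 FPKM and overlapped. Slc6a13 and Cd163 were picked after their values were seen. Groups did not overlap in this direction for 4.86% of the tested genes, which leave out Slc6a13. The sum of 8 meningeal markers was 13.5 to 15.2 FPKM with amphetamine and 14.1 to 17.2 FPKM with saline on that day, and the part of these cell types in the difference of Dcn was not tested.

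The collagen genes and Lum lay below the filter of 1 FPKM. Col1a1 rested on 12 to 29 reads per library with amphetamine and 10 to 29 with saline, and Lum on 1 to 11 and 1 to 10 reads. Col1a2 was at 0.309 to 0.535 FPKM with amphetamine and 0.228 to 0.475 FPKM with saline, and Col3a1 at 0.0233 to 0.159 and 0.0478 to 0.125 FPKM. Over the 3 days together these ranges overlapped. On day 7 Col1a2 was lower in each amphetamine mouse, at 0.358, 0.325 and 0.323 FPKM, than in any saline mouse, at 0.379, 0.391 and 0.373 FPKM. Groups did not overlap in this direction for 4.86% of the tested genes, which leave out Col1a2. The groups of Col1a1 and Lum overlapped on that day. No test at the filter of 1 FPKM covers these genes, and none of them was called without a filter. Across the 9 markers with whole reads, the variance within groups was 1.97 times (Col1a1) to 9.61 times (Rgs5) that of counting alone.

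Levels were also compared between days, and here too no marker passed. The limma test of a day effect called 0 of 28 markers in amphetamine mice, against 0% of all genes, and 0 of 28 in saline mice, against 0.00716%. At an unadjusted limma p under 0.05 there were 2 of 28 in amphetamine mice (11.2% of all genes) and 3 of 28 in saline mice (5.95%). In amphetamine mice these were Slco1a4 and Rgs5, which were 0.43 ± 0.14 and 0.51 ± 0.17 higher on day 21 than on day 1 (limma adjusted p of the day effect = 0.402 and 0.413). In saline mice they were Cldn5, Slc16a1 and Kdr. Cldn5 in saline mice was 0.53 ± 0.15 higher on day 21 than on day 1 and 0.40 ± 0.15 higher on day 7 (limma adjusted p of the day effect = 0.768), and its values on day 21, 12.2 to 12.4 FPKM, lay above all those of day 1. In amphetamine mice Cldn5 was 0.27 ± 0.15 higher on day 21 than on day 1.

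As a group, 15 of 21 endothelial genes in amphetamine mice were higher on day 21 than on day 1 (40.1% of all genes), and 18 of 21 in saline mice (59.8%). For day 7 over day 1, which shares the day 1 mice, the counts were 13 of 21 in amphetamine mice (34.4% of all genes) and 18 of 21 in saline mice (45.6%). Leaving out 1 library at a time, the counts lay between 12 and 15 and between 11 and 13 in amphetamine mice, and between 15 and 20 and between 14 and 21 in saline mice, where 14 is the day 7 count without saline replicate 2 of day 7. The difference between the treatments in these day effects is the interaction, in which no marker passed.

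**Figure D5:**
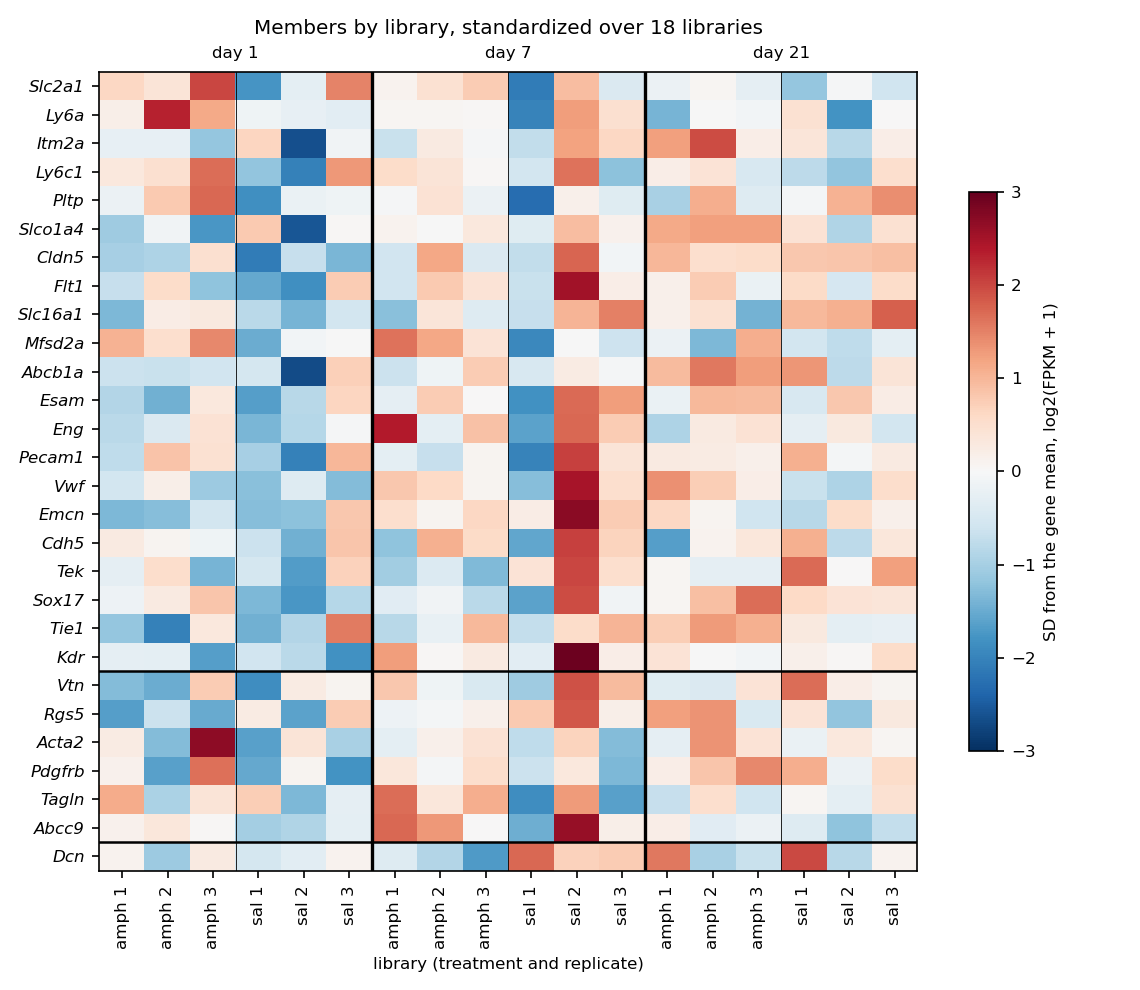
Deviation of each tested marker (rows) from its mean over 18 libraries in SD of log2(FPKM + 1), by day with amphetamine libraries left of saline libraries, from blue (low) to red (high). Saline replicate 2 of day 7 is high across endothelial and mural genes, and saline replicates 1 of days 1 and 7 and replicate 2 of day 1 are low across most endothelial genes.

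The treatments also differed in the spread of endothelial genes, which was noticed in these data and not tested. The within-group SD of the log2 endothelial sum was 0.084 over the 9 amphetamine libraries and 0.222 over the 9 saline libraries, or 0.17 over 8 without saline replicate 2 of day 7. Of the 21 endothelial genes 19 had the larger within-group SD in saline mice, against 51.3% of all genes, and 15 did without that library, against 52.1%. The median SD of these genes was 0.122 with amphetamine and 0.225 with saline, or 0.185 with saline without that library. Over all genes, with every library kept, it was 0.13 and 0.131. On day 7, Ly6a was at 26.48, 26.4 and 26.3 FPKM in amphetamine mice and at 15.996, 35.2 and 29.3 FPKM in saline mice, while on day 1 the same gene spread more widely with amphetamine (27.2 to 45.3 FPKM) than with saline (24.1 to 25.2 FPKM). Of the 6 mural genes 4 had the larger SD in saline mice, and 3 without that library.

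Pairs of markers with related roles were compared over the 18 libraries by Pearson's r and Spearman's rho on the log2 scale, with 8 pairs and two-sided permutation p values adjusted over them. None of the 8 passed. The receptor genes Flt1 and Kdr had r = 0.582 (permutation p = 0.0139, adjusted p = 0.111) and rho = 0.41 (permutation p = 0.0943, adjusted p = 0.251). Without the 2 libraries farthest from the median of Flt1, r was 0.183, and leaving them out also narrows the range of Flt1. With values centred on group means r was 0.38 (permutation adjusted p = 0.349). Cldn5 and Pecam1 had r = 0.457 and rho = 0.34, with r = 0.565 without the 2 farthest libraries (permutation adjusted p = 0.169, 0.28 and 0.0786). Ly6c1 and Ly6a had r = 0.414 and rho = 0.414, and Acta2 and Tagln r = 0.335 and rho = 0.335 (permutation adjusted p = 0.169 and 0.251 for the first pair, 0.283 and 0.28 for the second). Without the 2 farthest libraries r was 0.528 and 0.521 for these pairs. Pdgfrb and Rgs5, both pericyte markers, had r = −0.119 and rho = −0.003 (permutation adjusted p = 0.738 and 0.993), and Acta2 and Myh11, both of smooth muscle, had r = −0.118 and rho = 0.009 (0.738 and 0.993). Col1a1 and Col1a2, whose products form 1 collagen, had r = −0.445 and rho = −0.465 (permutation adjusted p = 0.169 and 0.251) at 10 to 29 reads of Col1a1 per library, and Col1a1 and Dcn had r = −0.068 and rho = 0.005 (0.789 and 0.993).

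Outside the markers, the gene most like the endothelial score (the mean of the 21 standardized log2 values) over the 18 libraries was Slco1c1, the thyroid hormone transporter of brain endothelium, with r = 0.912 and rho = 0.841. Acvrl1, an endothelial receptor of the TGF-beta family, came next with r = 0.871, followed by Nes with r = 0.789. The score of the 6 mural genes was most like Acvrl1 (r = 0.807), Mrto4 (0.798) and Igfbp7 (0.76). Dcn was most like Mir106b (0.788), Klhdc2 (0.75) and Mir125a (0.716). These correlations were picked as the highest among all tested genes, share their libraries and depth, and are given as a description.

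Partner genes of the vessel wall were read from 8 lists, and the limma test called none of their members in any comparison. For barrier partners 18 of 21 genes were tested. Of these 17 were above 0 on day 1 (64% of all genes), 12 on day 7 (51.5%) and 7 on day 21 (42.7%), and 16 in the mean of the days (55.6%). In this list the transferrin receptor gene Tfrc and the amino acid transporter gene Slc7a5 had mean differences of 0.13 and 0.13. Of the growth factor and Tie signalling list 7 of 13 were tested, 5 of them above 0 in the mean (55.6% of all genes). Mean differences were 0.10 for Pdgfb, the endothelial signal to pericytes, and −0.07 for Pdgfa. In the Wnt list 14 of 16 were tested, and 8 of the 14 were above 0 in the mean (55.6% of all genes). Ndp, the ligand norrin, was 0.18 ± 0.06 higher (limma adjusted p = 0.797) and Sox18 0.20 ± 0.12 higher. In the Notch list 8 of 11 were tested, and 5 of the 8 were above 0 in the mean (55.6% of all genes). Hey1 and the ligand gene Jag1 had mean differences of −0.11 and −0.12. The level of Hey1 was 21.2 to 31.7 FPKM, and which cells carried it was not measured.

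Klf2, of the endothelial activation and shear list, had the largest mean difference of the partner genes named here. The list had 11 of 16 genes tested, and 10 of the 11 were above 0 in the mean of the days (55.6% of all genes). The median of the list in that mean was 0.045, against 0.008 for all genes. Klf2, a flow-responsive transcription factor, was at 6.79, 5.16 and 5.88 FPKM with amphetamine on day 1 against 3.00, 2.85 and 4.34 FPKM with saline, without overlap (7.73% of all genes in this direction). Its mean difference was 0.40 ± 0.11 (limma adjusted p = 0.435), and that of Klf4 was 0.30 ± 0.10 (limma adjusted p = 0.714). Both are also induced in other cell types, and which cells carried them was not measured. Klf4 was at 1.84, 2.13 and 2.63 FPKM with amphetamine on day 1, against 1.32, 1.34 and 1.71 FPKM with saline. These groups did not overlap (7.73% of all genes in this direction). Klf4 was at 2.39, 2.23 and 2.22 FPKM with amphetamine on day 7, against 0.816, 2.48 and 1.53 FPKM with saline. The groups overlapped on day 7 and on day 21.

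Of the mural contraction list 14 of 19 genes were tested, 7 of them above 0 in the mean (55.6% of all genes). Gucy1b3 was at −0.04 and Cspg4 at 0.08. The level of Gucy1b3 was 81.3 to 98.1 FPKM, above the range of every mural marker, and which cells carried it was not measured. Of the basement membrane list 9 of 14 were tested and 8 of 9 were above 0 in the mean (55.6% of all genes). Lamb2, a laminin chain of vessels, was at 0.14 ± 0.05 (limma adjusted p = 0.797) and Fn1, fibronectin, at 0.15 ± 0.07 (limma adjusted p = 0.93). Of the fibroblast matrix list 10 of 22 were tested and 8 of 10 were above 0 in the mean (55.6% of all genes). Among them Col6a1, a collagen VI chain, was at 16.4, 17.9 and 14.8 FPKM with amphetamine on day 7 against 6.40, 10.8 and 13.5 FPKM with saline. Its groups did not overlap on that day (5.45% of all genes in this direction) and its difference had the sign opposite to that of Dcn, at 0.68 on day 7 and 0.30 ± 0.13 in the mean (limma adjusted p = 0.9).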

How the data were processed

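Striatal polyA RNA of 18 mice in 6 groups of 3 was measured by sequencing. The authors deposited FPKM for 29942 gene names in 18 columns matched to the samples by header number, with 0 columns of other samples. Bowtie and build mm9 are named in the submitters' processing notes; versions, the quantifier, the annotation and strand handling were not given in the sources used here, so overlapping genes cannot be told apart. A count model was not used, since FPKM are scaled values. Genes with a mean of at least 1 FPKM (13975) were tested as log2(FPKM + 1), which understates changes of low genes, with limma 3.58.1 in R 4.3.3: 1 mean per group over all 18 libraries, a trend of variance with level, 12 residual degrees of freedom, two-sided p values adjusted by the Benjamini-Hochberg method over all genes tested. With 3 animals against 3, a single value could not reach an exact permutation p below 0.1. Relative depth came from the steps between low values, and reads of 9 markers were whole within 0.02 reads; the other 24 were not recovered. Absolute depth is unknown, and read numbers cover counting error only.

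Markers and partner lists were chosen with earlier results of these data known. All 33 markers are named; of each partner list the 2 genes with the smallest p in the mean of the days are named, or up to 3 called genes, and for each class the 3 most correlated genes. Klf4, Col1a2 on day 7, Col6a1, Slc6a13 and the other cell type markers are given in more detail after their values were seen. So are the levels of Hey1 and Gucy1b3. The code was tested on simulated data with known changes. Alternatives covered the pseudocount, the filter, scaling, moderation, array weights, a replicate block, fits by day and leaving out each library; relative depth as a covariate, the relations without 2 libraries and the counts of direction were added after the data were seen. Libraries correlated at 0.911 to 0.942, and none was a duplicate. Figures were drawn with matplotlib 3.10.9.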

Additional observations from a re-analysis of the deposited data

How the results depend on the processing

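No marker was called under any of 30 other settings. Counts of called genes over the whole table are small and moved with the setting, and the cause was not tested. With a filter of 5 FPKM they were 3, 5 and 4 on days 1, 7 and 21 and 0 for the day effect in saline mice, which was also 0 without a filter. Quantile normalization gave 3 on day 21 and 0 for the saline day effect, and robust moderation gave 2 on day 1. Array weights gave 4, 6 and 5 on the 3 days, 28 in the mean, 2 for the day effect in amphetamine mice and 3 in saline mice. With relative depth as a covariate, chosen after seeing the data, there were 9 in the mean and 0 for the saline day effect. Fits to the 6 libraries of a day gave 3, 9 and 6. Leaving out 1 library at a time gave 1 to 8 on day 1, 0 to 10 on day 7, 0 to 6 on day 21, 8 to 17 in the mean, 0 to 2 in the interaction and 0 to 2 for either day effect. The endothelial median on day 7 then ran from −0.20 to 0.094. The difference of Dcn on day 7 was −0.72 with a pseudocount of 0.1, and with no filter the median of all 5 fibroblast genes was −0.048, since 4 more genes enter. With the filter of 5 FPKM, which leaves Rgs5 and Vtn, the mural medians were −0.15 on day 1, −0.17 on day 7 and −0.094 in the mean.

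The labels do not say what a shared replicate number marks, and not every pair deviated together: over all groups same-numbered animals deviated from their group means with correlations of −0.131 to 0.167, and those of the same day with −0.085 to 0.145. As a hint the other way, 10 of 18 libraries correlated best with one of their own number, and in 7 of 9 same-day pairs the animals' header numbers were at most 2 apart. In a fit blocked by replicate number, 0 genes were called on day 7, 8 in the mean and 0 for the saline day effect, and no marker was called. Col1a1 and Lum rested on 10 to 29 and 1 to 11 reads per library, the fewest of the 9 markers with recovered reads.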
